A study of Mus musculus with 6 samples.

Results

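The regions described here are intergenic CUT&Tag regions to which the authors assigned no gene. CUT&Tag uses an antibody to bring a transposase to chromatin, so that reads gather where the antibody's target sits. All regions whose annotation was blank were taken from the 4 deposited tables, leaving out the mitochondrial genome. For TGF-b against NC they numbered 69037 of 170877 regions (40.4%) of the T set and 25464 of 52712 (48.3%) of the S set. In the comparison of TGF-b with siRNA against TGF-b alone there were 75858 of 180104 (42.1%) for T and 23890 of 52568 (45.4%) for S.

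The 6 libraries came from primary cardiac fibroblasts of mouse heart, with 3 libraries in each set and 1 library per treatment. Each set has an NC library, a TGF-b library and a library that also received siRNA, which the labels call SiTAZ in the T set and SiSRF in the S set. The study's text instead describes siRNA against Piezo2 in these experiments, so no siRNA target is stated here, and reads at chromatin cannot check a knockdown. T was read as TAZ and S as SRF from the study's description, because the labels give no antibody. Neither strain, age, sex, culture time nor pooling of animals is given in the sample labels, and the series design speaks of Tet3 deletion by a Cre virus, which no sample label lists. With 1 library per treatment nothing could be tested across samples: every difference below is between 2 libraries, and no interval covers the spread between libraries. Intervals are at 95%: those of a single region's ratio cover the counting of reads, and those of medians and shares cover the spread over regions, taken as independent although windows overlap. Both comparisons of a set share its TGF-b library.

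TAZ, encoded by Wwtr1, is a mechanosensitive coactivator without a DNA-binding domain of its own, and it reaches chromatin mainly through TEAD factors. SRF binds CArG boxes and, with its MRTF partners, drives contractile and cytoskeletal genes. TGF-b turns cardiac fibroblasts into myofibroblasts that secrete collagen and express contractile proteins. Intergenic DNA holds enhancers that act on genes at a distance, and it also holds much of the repeated DNA of the genome, including the satellite arrays beside mouse centromeres.

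The libraries of the T set are called T libraries, and those of the S set S libraries. Reads at these regions were few. The deposited normalized read density is in reads per kb of a 2 kb window, and the reads behind it were recovered as whole numbers. Summed over these regions, whose windows overlap in places, a library held from 262404 to 744509 reads in a table. A region with no assigned gene held a median of 12 reads over both libraries of the first T table and 10 in the second, and 17 in each S table. Regions with an assigned gene held 15, 18, 13 and 19 as a median, in the order T and S for TGF-b against NC and then T and S for the siRNA comparison. In T libraries, 55.8% and 64.1% of the regions without a gene had 3 or fewer reads in a library of the table. In S libraries the shares were 28% and 29.9%. The regions were short, with a median length of 82 to 150 bp.

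Few of these regions were called as peaks in both libraries of a table. The shares were 3.49% in T libraries and 1.64% in S libraries for TGF-b against NC, against 6.72% and 2.67% of regions with a gene. For the siRNA comparison they were 2.55% and 1.83%, against 5.41% and 5.59%. Among all regions called in both libraries, those without a gene made up 26%, 36.4%, 25.6% and 21.4% in the same order, below their 40.4% to 48.3% of all regions. A region called in NC only was picked for being high there, and likewise for TGF-b, so the side of its ratio follows from the call. In T libraries for TGF-b against NC, the median log2 ratio was -1.37 over the 48895 regions called in NC only, 1.60 over the 17733 called in TGF-b only and -0.20 over the 2409 called in both. Regions with a gene had the same split, at -1.22, 1.33 and 0.08.

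The first comparison asked where association differed between TGF-b-treated and NC fibroblasts. In T libraries, regions without a gene had lower density in TGF-b, with a median log2 ratio of -0.80, while regions with a gene had a median of -0.58. The median was -0.40 when 3 reads were taken as the least and -0.20 at regions called in both libraries. At least 2-fold lower density was seen at 31306 of them (45.3%, Wilson interval 45.0% to 45.7%), where 42.1% of all regions were that much lower, and the count was 20000 with reads of 3 or fewer set to 3. At least 2-fold higher density was seen at 11981 (17.4%, 17.1% to 17.6%), where the share of all regions was 17.3%. The lower share was therefore a few points above that of all regions and the higher share was about the same. Regions without a gene that were past 2-fold were higher in 27.7% of cases, beside 29.2% over all regions past 2-fold. For regions without a gene the share was 46.1% (17547 higher, 20522 lower) after subtracting the median of all regions.

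For S libraries the median log2 ratio of TGF-b over NC was -0.26 at regions without a gene (-0.28 to -0.23) and -0.16 at regions with a gene. At least 2-fold lower density was found at 7054 regions without a gene (27.7%), beside 26.7% of all regions, and at least 2-fold higher density at 4190 (16.5%), beside 17.4%. This direction rested on the scaling. The authors rescaled densities along a straight line that centres peaks shared by both libraries, which moved the median of all regions by 0.13, -0.56, 0.46 and 0.08 on the log2 scale in the 4 tables, in the order above. Ratios without that line, here and below, compare reads plus 1 and carry no correction for the depth of the libraries. Without that line the median of S libraries at regions without a gene was 0.32, and 8001 regions were higher and 3989 lower, so that 66.7% of those past 2-fold were higher in place of 37.3%. Centred on the median of all regions, 5232 were higher and 5685 lower (47.9% higher). With the line, 39.5% of all regions past 2-fold were higher, close to the 37.3%. The share over all regions is not given here without the line or after centring. The gap between the medians of regions without and with a gene was almost the same with the line (-0.10) and without it (-0.09), and in T libraries it was -0.22 both ways.

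The second comparison asked how TGF-b with siRNA differed from TGF-b alone. In T libraries the density of regions without a gene was higher with siRNA, with a median log2 ratio of 1.18 (1.16 to 1.18) against 0.86 at regions with a gene. The median was 0.74 without the authors' line, 0.76 when 3 reads were taken as the least and 0.19 at regions called in both libraries. At least 2-fold higher density was seen at 40540 regions without a gene (53.4%, 53.1% to 53.8%), where 49.7% of all regions were that much higher, and at least 2-fold lower density at 11744 (15.5%), where 16.2% of all regions were. With reads of 3 or fewer set to 3 these counts were 32606 and 4711. In S libraries the median was -0.35 (-0.37 to -0.35) against -0.09 at regions with a gene. There 7700 regions without a gene (32.2%, 31.6% to 32.8%) were at least 2-fold lower, beside 27.8% of all regions, and 3366 (14.1%) were at least 2-fold higher, beside 15.1%. Centring on the median of all regions gave 24527 higher and 19918 lower in T libraries (55.2% higher in place of 77.5%), and 4554 higher and 6319 lower in S libraries (41.9% in place of 30.4%). Before centring, the higher share over all regions past 2-fold was 75.4% in T libraries and 35.3% in S libraries.

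The gap between regions without and with a gene varied with depth. In T libraries for TGF-b against NC, regions of under 10 reads had the same median of -0.80 in both groups. At 50 to 99 reads the median was -0.65 (-0.72 to -0.61) at 1983 regions without a gene and -0.12 (-0.15 to -0.08) at 6916 with one. At 100 or more reads it was -0.56 (-0.67 to -0.42) at 306 regions without a gene and 0.18 (0.15 to 0.22) at 1579 with one. The 2 groups thus lay on opposite sides of 0 at the highest depth, and without the authors' line their medians were -0.47 and 0.25. The place of 0 itself is set by the scaling, which centres peaks shared by both libraries. For S libraries the pair of medians went from -0.93 and -1.19 under 10 reads to -0.08 and 0.50 at 50 to 99 reads and to -0.37 and 0.26 at 100 or more reads. Without the authors' line the S medians at 100 or more reads were 0.12 and 0.77. For the siRNA comparison of T libraries, the medians were 1.44 and 1.26 under 10 reads, and at 100 or more reads 0.52 (0.38 to 0.65) without a gene and -0.15 (-0.20 to -0.10) with one (0.034 and -0.64 without the line). The S set had no such widening with siRNA. Its medians were 0.15 and 0.73 under 10 reads and -0.23 (-0.35 to -0.13) and 0.07 (-0.03 to 0.16) at 100 or more.

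**Figure D1:**
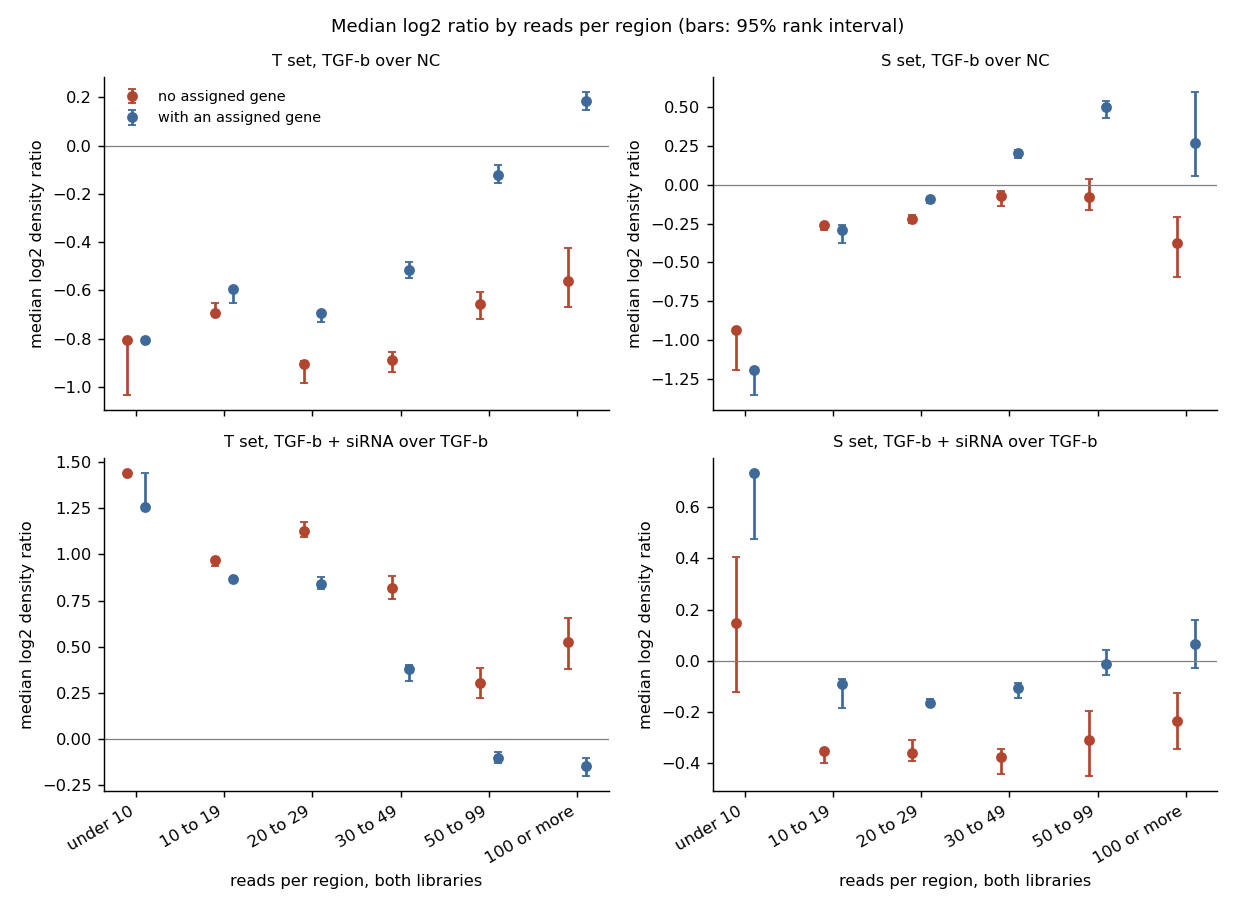
Median log2 ratio of normalized read density (vertical axis) by reads per region summed over both libraries of a table (horizontal axis), for regions without (red) and with (blue) an assigned gene. Bars are 95% rank intervals. In T libraries for TGF-b over NC the groups start at the same median of -0.80 and end at -0.56 and 0.18.

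Split by the authors' annotation classes, regions without a gene had medians close to those of introns and apart from those of promoters. Among regions of at least 30 reads in T libraries for TGF-b against NC, the median log2 ratio was -0.81 at 7450 regions without a gene, -0.69 at 11372 introns and 0.23 at 6405 promoters. In S libraries the medians were -0.12 (-0.15 to -0.06), -0.04 (-0.09 to 0.00) and 0.45 (0.40 to 0.50). With siRNA in T libraries they were 0.65, 0.55 and -0.22, or 0.18, 0.079 and -0.70 without the authors' line, and in S libraries -0.37, -0.35 and 0.11. At this depth, in these 4 comparisons, the class without a gene lay on the same side of 0 as introns and on the side opposite to promoters. The order of the 3 classes was the same without the authors' line, but the side of 0 was not in S libraries for TGF-b against NC. There the 3 medians without the line were 0.44, 0.51 and 1.0, all above 0. Over regions of any depth, with the line, the side was not opposite in every comparison. In T libraries the 3 medians were -0.80, -0.74 and -0.013 for TGF-b over NC, and 1.18, 1.03 and 0.11 with siRNA. In S libraries they were -0.26, -0.29 and 0.27 for TGF-b over NC, and -0.35, -0.17 and 0.12 with siRNA. Only 10.8% and 6.05% of regions without a gene reached 30 reads in the T tables, against 48.9% and 41.4% of promoters.

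**Figure D2:**
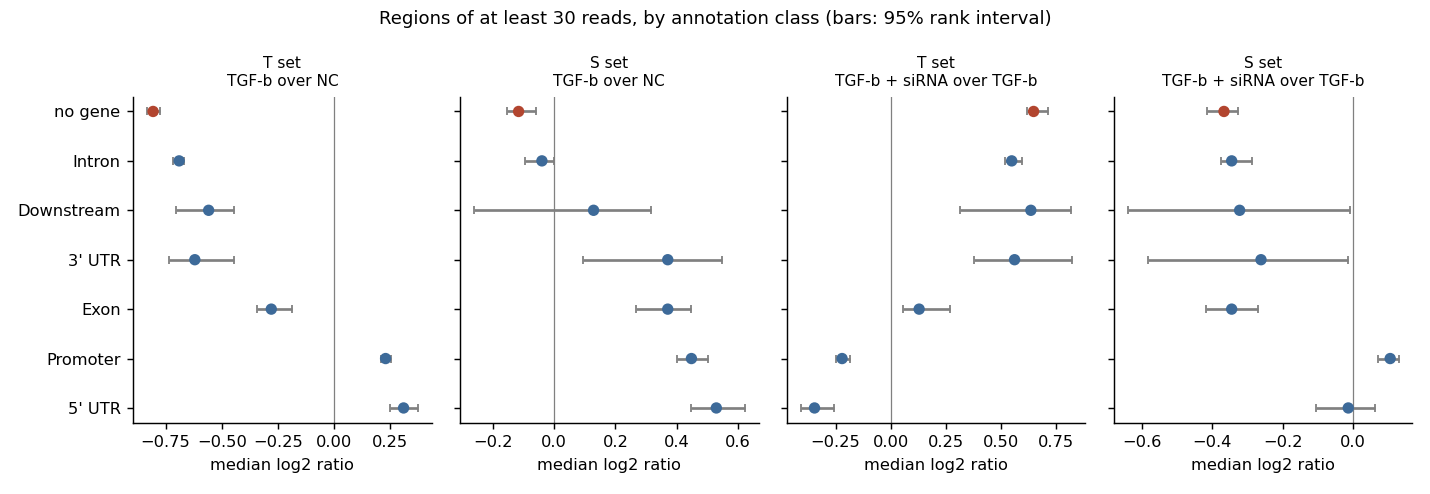
Median log2 ratio (horizontal axis) of regions with at least 30 reads in each annotation class, 1 panel per comparison, with 95% rank intervals as bars. At this depth the class without a gene (red) lies on the same side of 0 as introns in all 4 panels, and promoters lie on the other side.

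Regions without a gene were spread over all chromosomes. Their share of the called regions was lowest among autosomes on chromosome 19 in T libraries for TGF-b against NC (33.5%) and on chromosome 7 in the other 3 tables (39.6% in S libraries, 34.6% with siRNA in T libraries and 36.9% with siRNA in S libraries). Chromosome 3 had the highest autosomal share in every table, at 48.3%, 56.2%, 50.1% and 52.5%. Chromosome X had a higher share still, between 52.5% and 60.7%, but fewer regions without a gene per Mb. It held 12.3 and 15.1 per Mb in the T tables, where the autosomes had medians of 27.6 and 30.2, and 4.57 and 3.95 per Mb in the S tables, against 10.3 and 9.73. Ratios on X were further from 0 in T libraries, with medians of -1.23 for TGF-b against NC and 1.76 with siRNA, at medians of 8 and 7 reads per region. The same held for regions with a gene. Their medians on X were -0.89 and 1.44, against -0.58 and 0.86 over all regions with a gene.

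**Figure D3:**
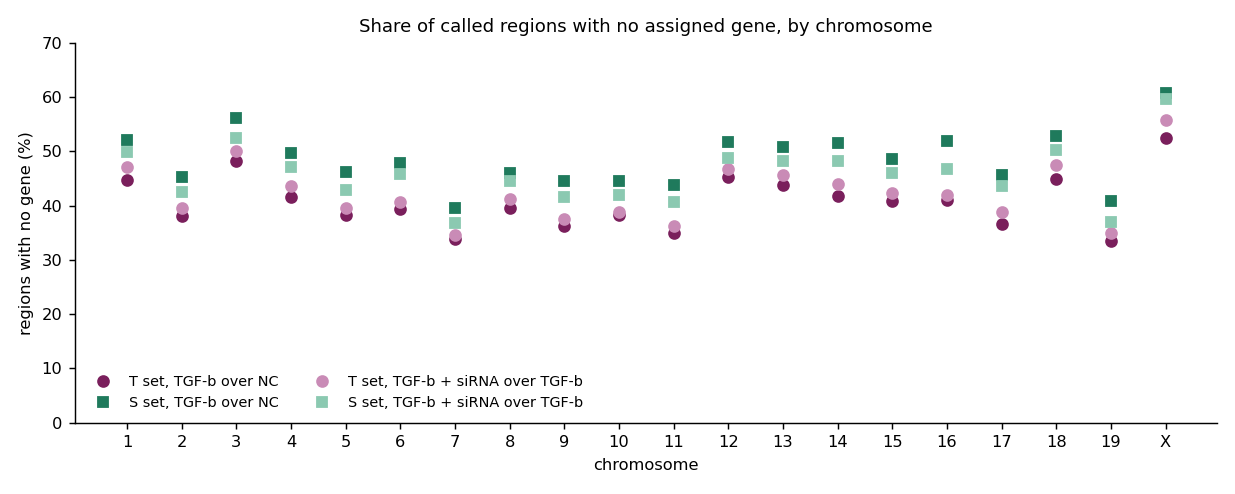
Share of called regions that have no assigned gene (vertical axis, in percent) on each chromosome, for the 4 tables. Chromosome 3 is the highest autosome in each table, from 48.3% to 56.2%, and X lies above it.

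Distance to genes was taken from the 26753 genes whose positions the tables give. The median distance from a region without a gene to the nearest of these was 44.7 kb and 50.3 kb in the T tables and 54.6 kb and 47.9 kb in the S tables. Within 10 kb of a gene lay 14.8% to 17.7% of them, and from 13 to 65 per table lay inside the span of a gene. For S libraries the median log2 ratio of TGF-b over NC went from -0.11 within 10 kb of a gene to -0.57 over 1 Mb away, at medians of 17 and 15 reads. With siRNA in S libraries it went from -0.29 to -0.67. With siRNA in T libraries it went from 1.03 within 10 kb to 1.46 over 1 Mb away, where the median number of reads went from 11 to 9. Some gene-poor intervals held many regions in both sets. The 3.09 Mb between Slitrk5, a neuronal membrane protein, and Gm41244 on chromosome 14 held 161 and 186 regions in the T tables and 74 and 52 in the S tables.

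Reads were concentrated in few regions in S libraries and less so in T libraries. Dense regions were defined as the top 1% of mean density among all regions of a table. Those without a gene held 23.1% to 30.9% of the reads of regions without a gene in S libraries and 5.58% to 7.82% in T libraries. Of these, regions without a gene made up 279 of 1709 (16.3%) and 268 of 1802 (14.9%) in the T tables, below their 40.4% and 42.1% of all regions. In the S tables they made up 268 of 528 (50.8%) and 195 of 526 (37.1%), beside 48.3% and 45.4% of all regions. The 2 regions with most reads, whose windows overlap, held 16.2% of the reads summed over all regions without a gene in the S set's NC library, 11.6% in TGF-b and 14.7% in TGF-b with siRNA. In T libraries the same share was 1.73% in NC, 2.23% in TGF-b and 1.24% with siRNA. The fall with rank was steep. The first region of the S set's NC library had 24275 reads, the tenth 1197 and the hundredth 78, and in the T set's NC library these were 6547, 417 and 90.

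**Figure D4:**
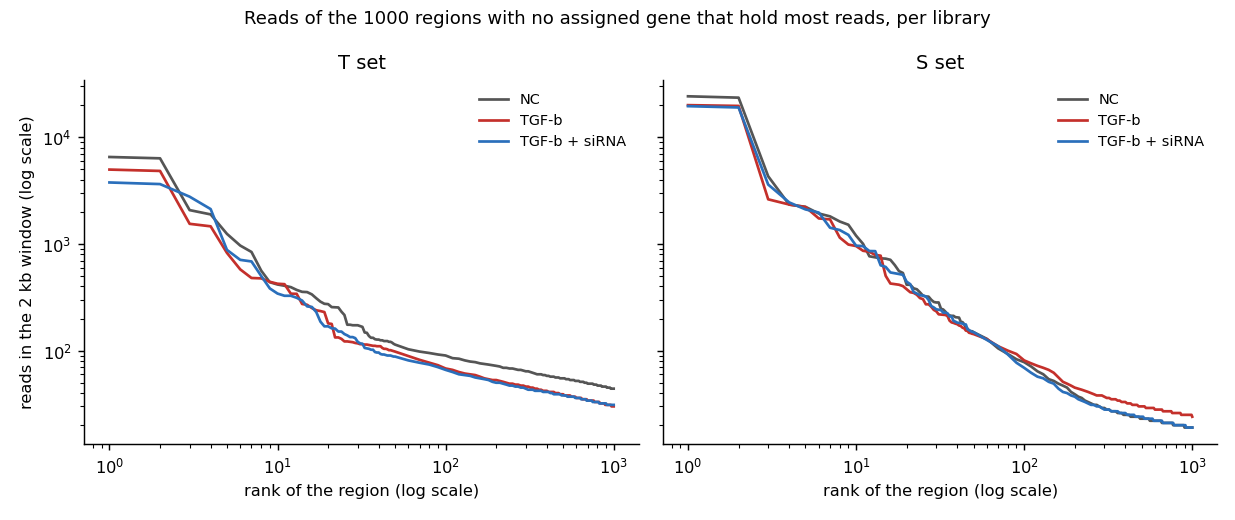
Reads in the 2 kb window (vertical axis, log scale) of the 1000 regions without an assigned gene that hold most reads, by rank (horizontal axis, log scale), for each library. The S set NC library falls from 24275 reads at the first rank to 78 at the hundredth.

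The densest region of every table was on chromosome 2, at chr2:98496918-98497656 in T libraries (table coordinates, which fit GRCm39) and chr2:98496914-98497658 in S libraries. It lies 690 kb from Gm29235 in a gene-poor interval that opens at Lrrc4c, a netrin-G ligand of synapses. In T libraries it held 6547 reads (NC), 4988 (TGF-b) and 3776 (siRNA), so NC had the most reads. The normalized log2 ratio was -0.85 (-0.91 to -0.80) for TGF-b over NC and 0.15 (0.09 to 0.21) for siRNA over TGF-b. The side of the siRNA ratio rested on the scaling, since the 4 dense regions of this cluster had a median of 0.27 with the authors' line and -0.26 without it. For TGF-b over NC the cluster's median was -0.85 in T libraries and -0.55 in S libraries, or -0.39 and -0.27 without the line. In S libraries it held 24275, 20055 and 19622 reads, and NC again had the most. Its ratios there were -0.56 (-0.59 to -0.53) and -0.39 (-0.42 to -0.37). The cluster's S median with siRNA was -0.40 with the line and -0.040 without it. Its neighbour from 98496584 shares most of the same window and had nearly equal values.

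Other regions with most reads were dense in both sets too. On chromosome 17, the region chr17:13524882-13526508, 48.3 kb from Tcp10c, held 2079 reads (NC), 1546 (TGF-b) and 2778 (siRNA) in T libraries. Its log2 ratios were -0.78 (-0.88 to -0.69) and 1.38 (1.29 to 1.47), so the TGF-b library was the lowest of the set. In S libraries the matching region had 2231, 2223 and 2456 reads, and ratios of -0.38 (-0.46 to -0.29) and -0.09 (-0.17 to 0.00). The 3 S set libraries were nearly level in reads, so these ratios come mostly from the scaling. On chromosome 13, chr13:74676591-74678908 held 1895, 1465 and 2126 reads in T libraries, with ratios of -0.72 (-0.82 to -0.62) and 1.07 (0.98 to 1.17). In S libraries that locus held 1932, 2346 and 2111 reads, with ratios of -0.093 and -0.38, and TGF-b had the most reads there, so the side of the first ratio rests on the scaling. On chromosome 9, chr9:3000106-3001515 held 4317 reads (NC), 2624 (TGF-b) and 3609 (siRNA) in S libraries. The ratios there were -1.07 (-1.14 to -1.0) and 0.21 (0.14 to 0.28), and the TGF-b library was the lowest.

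Dense regions without a gene lay near the first or last called region of their chromosome far more often than others. Within 1 Mb of either were 15.9% (interval 12% to 20.8%) and 23.4% (18.5% to 29%) of them in the T tables and 45.9% (39.2% to 52.7%) and 53.2% (45.4% to 61.0%) in the S tables. Of the regions without a gene that were not dense, 1.26% to 1.36% lay there, and of dense regions with a gene 2.42% to 8.17%. On the autosomes of the mouse, whose centromeres lie at the start of the chromosome, the assembly opens with a gap. Scaffolds that the assembly does not place on a chromosome added 15 and 20 dense regions without a gene in the T tables and 59 and 41 in the S tables. The part of repeated sequence in these densities was not tested.

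Dense regions without a gene clustered. Joining those at most 50 kb apart and keeping groups of at least 3 gave 16 clusters with 74 regions and 22 clusters with 103 in the T tables, and 25 clusters with 161 and 18 clusters with 123 in the S tables. Clusters held 26.5%, 38.4%, 60.1% and 63.1% of the dense regions without a gene, in that order. Within a cluster the log2 ratios mostly had the same sign, in 12 of 16 and 16 of 22 clusters of the T tables and in 16 of 25 and 10 of 18 of the S tables. Neighbouring windows can overlap, so regions of a cluster are not separate measurements.

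The cluster at the start of chromosome 9 had the most dense regions in 3 tables, tied in one of them, and ranked second in the other. In S libraries it spanned chr9:3000106-3076665 with 23 dense regions, and 22 of these were below 0 for TGF-b over NC, with a median log2 ratio of -1.20. With siRNA 17 of 20 were above 0, with a median of 0.47. In T libraries all 10 dense regions were below 0 for TGF-b over NC (median -0.84) and all 10 were above 0 with siRNA (median 0.69), or 9 of 10 without the authors' line (median 0.20). Scaffold JH584304.1 held the next cluster in S libraries, with all 22 dense regions below 0 for TGF-b over NC (median -1.51) and 19 of 20 above 0 with siRNA (median 0.59). Without the authors' line 21 of the 23 S regions on chromosome 9 and all 22 on the scaffold stayed below 0 for TGF-b over NC, with medians of -0.75 and -1.06. The starts of chromosomes 4, 3 and 14 held further clusters. On chromosome 4 the medians for TGF-b over NC were -0.61 over 4 dense regions of T libraries and -0.04 over 12 of S libraries, or -0.56 and 0.47 without the line. With siRNA they were 1.05 over 11 regions of T libraries and -0.27 over 13 of S libraries, or 0.57 and -0.23 without the line. On chromosome 3 the 8 dense regions of T libraries had a median of 0.42 with siRNA, or -0.067 without the line. There the S medians were -0.61 over 9 regions for TGF-b over NC and -0.43 over 7 with siRNA. Without the line these S medians were -0.080 and -0.39. On chromosome 14 the 6 dense regions of T libraries had a median of -1.27 for TGF-b over NC, and its 5 with siRNA had a median of 1.21, or -1.10 and 0.70 without the line.

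A cluster on chromosome 17 went the other way in S libraries. It spans chr17:40154326-40159599, between Esp23 and Crisp3, an interval in which RefSeq lists Rn18s-rs5, a pseudogene of 18S ribosomal RNA, and the long noncoding RNA AY036118. Its top S set region held 535 reads (NC), 1737 (TGF-b) and 965 (siRNA), and the TGF-b library was the highest. The log2 ratio was 1.29 for TGF-b over NC and -1.04 for siRNA over TGF-b. Over its 3 S set regions the ratios lay between 0.94 and 1.29, and between -1.10 and -0.99. In T libraries its 8 regions had a median of 0.13 for TGF-b over NC and its 5 regions 0.14 with siRNA, or 0.34 and -0.36 without the authors' line. The S medians kept their sides without it, at 1.61 and -0.89.

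Dense regions outside clusters were compared with those inside. In T libraries for TGF-b over NC, the 74 dense regions in clusters had a median log2 ratio of -0.53 and the 205 outside clusters -0.56. For S libraries the 161 in clusters had -0.59 (-0.73 to -0.37) and the 107 outside -0.08 (-0.22 to 0.07), or -0.14 and 0.44 without the line. With siRNA in T libraries the medians were 0.69 in clusters and 0.39 outside, or 0.21 and -0.095 without the line. With siRNA in S libraries they were -0.14 in clusters and -0.38 outside. Dense promoters had medians of 0.34, 0.55, -0.14 and 0.15 in the order T and S for TGF-b over NC and T and S with siRNA, or 0.40, 1.08, -0.63 and 0.15 without the line.

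The T and S sets share no library, so their values at the same place can be set side by side. At 31 loci with dense regions without a gene in all 4 tables, the median log2 ratio of TGF-b over NC had the same sign in both sets at 27 loci. Pearson's r across loci was 0.62 and Spearman's rank correlation 0.61, given as a description of loci whose libraries differ between sets but whose sequence and mapping are shared. For siRNA over TGF-b the sign was the same at 11 of 31, with r = 0.39 and a rank correlation of 0.45. The sign counts depended on the authors' line. Without it they were 21 and 19 of 31, while r was 0.61 and 0.40. At the locus chr13:39643785-39644452 TGF-b stood far below both other libraries in each set. This place, between Gm47348 and Gm47349, held 175 reads (NC), 39 (TGF-b) and 139 (siRNA) in T libraries and 108, 46 and 112 in S libraries. Its log2 ratios were -2.21 and 2.30 in T libraries and -1.72 and 1.25 in S libraries. It was singled out after its values were seen.

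**Figure D5:**
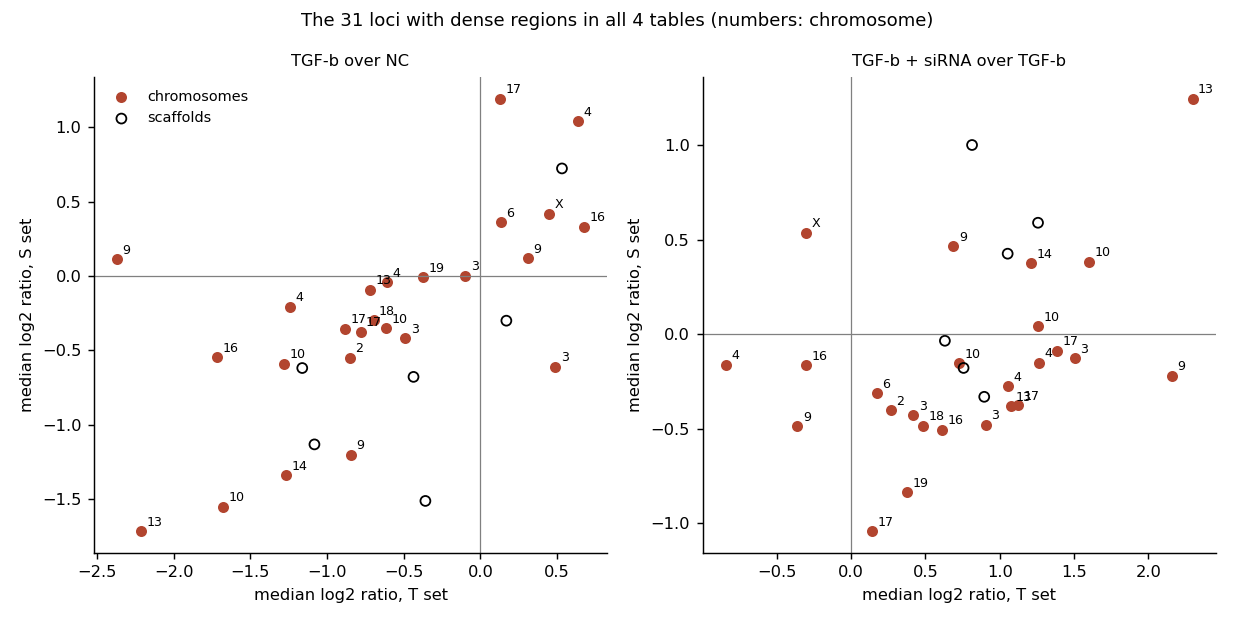
Median log2 ratio of the dense regions without a gene at 31 loci in T libraries (horizontal axis) and in S libraries (vertical axis), for TGF-b over NC (left) and for TGF-b with siRNA over TGF-b (right). With the authors' line the sign is the same in both sets at 27 loci on the left and at 11 on the right.

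Over all regions the sets overlapped little. For TGF-b against NC, 3.14% of T set regions without a gene overlapped an S set region by at least 1 bp, and 8.35% of S set regions overlapped a T set region. The shares were 4.52% and 16.6% for regions with a gene. In the siRNA tables they were 3.19% and 9.93% without a gene and 5.75% and 20.8% with one. Dense regions without a gene overlapped more, with 23.7% of T and 20.9% of S for TGF-b against NC and 28.7% and 35.9% with siRNA. Among 324 overlapping pairs without a gene and with at least 30 reads in each table, the sign of TGF-b over NC was the same in 67.9%, with r = 0.38. Introns gave 61.7% of 214 pairs, with r = 0.27, and promoters 70.3% of 1001 pairs, with r = 0.19. For siRNA over TGF-b, 47.6% of 422 pairs without a gene had the same sign, with r = -0.10. Introns gave 44.3% of 325 pairs, with r = -0.12, and promoters 48.1% of 1687 pairs, with r = 0.01.

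Regions called in all 3 libraries of a set were rare, with 952 in T libraries and 185 in S libraries. They made up 21.9% and 26.9% of all regions called in 3 libraries. In T libraries they held medians of 29, 24 and 20 reads in NC, TGF-b and TGF-b with siRNA. Their median log2 ratio was -0.18 for TGF-b over NC and 0.13 with siRNA, against 0.18 and -0.12 at the 3392 such regions with a gene. In S libraries they held medians of 31, 41 and 35 reads, with median ratios of -0.23 and -0.13, against 0.25 and 0.12 at 502 regions with a gene. The S ratio for TGF-b over NC and the T ratio with siRNA have the opposite sign to the change in median reads, so their side of 0 rests on the scaling.

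The largest differences among regions of at least 30 reads lay in single, thinly covered places. They were ranked with reads of 3 or fewer set to 3, while the ratios printed here use the reads as they were. In T libraries, chr1:169952344-169952514 lies 14.0 kb from Ddr2, a collagen receptor kinase of fibroblasts. NC had 74 reads there and TGF-b had 3, for a log2 ratio of -4.16 (-6.14 to -2.97). A pair of regions that share a window on chromosome 11, 28.5 kb and 28.9 kb from the potassium channel gene Kcnj12, held 103 reads in NC and 5 in TGF-b (log2 ratio -4.08, -5.59 to -3.08). These places were high in NC and low in TGF-b. In the other direction, chr12:16920411-16920802 lies between Gm36495 and Rock2, 24.1 kb from Rock2, a kinase gene whose product drives actomyosin contraction. It held 4 reads (NC), 45 (TGF-b) and 12 (siRNA), so TGF-b was the highest library. Its log2 ratio was 3.28 (2.15 to 4.99) for TGF-b over NC and -1.35 (-2.34 to -0.53) with siRNA. The region chr1:186176968-186177156 held 2, 38 and 7 reads in the 3 libraries, with a log2 ratio of 3.81 (2.45 to 6.27) for TGF-b over NC. The region chr2:108453188-108453327 held 0, 36 and 2 reads. Its density in TGF-b was at least 10.4-fold higher than in NC, with the 0 set to 3 reads.

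With siRNA in T libraries, the 3 largest differences upward were at chr2:106245347-106245412, chr7:107905515-107905648 and chr2:173335121-173335371. The first held 0 reads in TGF-b and 56 with siRNA, at least 19.5-fold higher with the 0 set to 3 reads. The second, 7.04 kb from the odorant receptor gene Or5p1, held 1 and 51 reads (log2 ratio 5.16, 3.61 to 8.65), and the third 3 and 49 (4.11, 2.90 to 6.09). Downward, chr12:81735181-81735669, 23.5 kb from Ttc9, held 51 reads (NC), 52 (TGF-b) and 3 (siRNA), so only the siRNA library was low (log2 ratio -3.26, -5.25 to -2.05). The region chr19:34360080-34360252, 54.9 kb from the death receptor gene Fas, held 9 reads (NC), 46 (TGF-b) and 2 (siRNA). There the TGF-b library stood above both others, with log2 ratios of 2.28 (1.39 to 3.41) and -3.51 (-5.96 to -2.16). The other of the 3, chr3:38331297-38331600, held 84, 59 and 4 reads.

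The S set had largest differences of smaller size for TGF-b against NC. The region chr11:117358918-117359212 held 1 read (NC), 33 (TGF-b) and 11 (siRNA), with a log2 ratio of 3.50 (1.93 to 6.99) for TGF-b over NC. The next ones, chr1:190184793-190184983 and chr5:112127759-112128014, each had 31 reads in TGF-b against 2 in NC, and 8 and 4 with siRNA. All 3 were highest in TGF-b. The lowest against NC was chr6:10186385-10186460, with 32 reads in NC and 5 in TGF-b (log2 ratio -3.02, -4.56 to -1.93). It was followed by chr5:84847285-84847388 with 27 and 5 reads, and chr8:73369602-73369708, 3.63 kb from Nwd1, with 36 and 7. With siRNA, chr12:9739673-9739871, 108 kb from Osr1, a transcription factor of embryonic mesoderm, held 28 reads with siRNA and 3 without it (log2 ratio 2.96, 1.69 to 4.95). Regions near Fam181a and Iqub each went from 4 reads to 27. The largest differences downward lay 10.2 kb from the cadherin gene Cdh22 (11, 35 and 3 reads in NC, TGF-b and siRNA), 6.98 kb from Gm56761 (5, 35 and 1) and 2.52 kb from the neural repressor gene Scrt2 (17, 32 and 2). Each of these 3 was highest in TGF-b. All regions in these comparisons were picked for the size of their difference, so their ratios are no estimate for regions without a gene at large.

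Members of a list of 31 fibroblast genes, drawn up with earlier results of these data known, were used to look at regions near matrix, contractile and YAP/TAZ target genes. Within 100 kb of a listed gene as the nearest gene lay 70 regions in T libraries for TGF-b over NC. Of these 9 were at least 2-fold higher and 25 lower, with a median log2 ratio of -0.58, against -0.80 over all 47279 regions without a gene this close to a gene. Of all such regions 16.9% were higher and 44.8% lower. With reads of 3 or fewer set to 3 the medians were -0.39 and -0.44. By role, 14 of 38 regions near matrix genes were at least 2-fold lower and 6 higher, 4 of 7 near contractile genes were lower and none higher, 2 of 15 near YAP/TAZ targets were lower and 3 higher, and 5 of 10 near regulators were lower and none higher. These counts are to be read against the same 44.8% and 16.9%. In the same order, 9, 4, 3 and 5 of these regions had 3 or fewer reads in a library. With reads of 3 or fewer set to 3 the medians by role were -0.37, -0.34, -0.20 and -0.99. The contractile median was -2.34 before that step. With siRNA, 32 of 82 regions near listed genes were at least 2-fold higher and 8 lower, with a median of 0.68 against 1.05 over all 49956. Of the 82, 30 had 3 or fewer reads in a library, and with those reads set to 3 the medians were 0.45 and 0.76. The shares of all such regions were 51.8% higher and 15.8% lower. The S set had 12 such regions in each table, of which 1 reached 30 reads. For TGF-b over NC, 1 was higher and 6 lower, with a median of -1.09 against -0.19 over all such regions, of which 17.4% were higher and 25.5% lower. With siRNA 3 were higher and 3 lower, with a median of -0.031 against -0.31. Of all such regions 14.6% were higher and 30.8% lower with siRNA.

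Near Col1a1, which encodes the main fibrillar collagen chain, 11 T set regions without a gene were called for TGF-b against NC and 14 with siRNA. The deepest, chr11:94818962-94819138 at 7.91 kb from Col1a1, held 113 reads (NC), 63 (TGF-b) and 31 (siRNA), so reads were lower at each step. The log2 ratio was -0.91 (-1.36 to -0.48) and -0.52 (-1.16 to 0.07), and the second interval includes 0. That reading depends on the authors' line, without which the 3 dense siRNA regions of this cluster had a median of -1.0 in place of -0.52. A region 2.38 kb from Col1a1 held 45, 16 and 10 reads, with ratios of -1.41 (-2.28 to -0.66) and -0.16 (-1.33 to 0.90). Beside Tgfb1, the gene of the ligand itself, chr7:25407023-25407533 held 97, 66 and 19 reads, with ratios of -0.62 (-1.08 to -0.18) and -1.27 (-2.05 to -0.59).

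Higher values in TGF-b were seen beside Lats2, a Hippo kinase gene that is itself a YAP/TAZ target. There chr14:57997918-57998384, 2.07 kb from the gene, held 42 reads (NC), 85 (TGF-b) and 65 (siRNA). Its log2 ratio was 0.95 (0.44 to 1.5) for TGF-b over NC and 0.11 (-0.36 to 0.57) with siRNA. Near Sparc, a matricellular protein, chr11:55319007-55319398 held 31, 47 and 29 reads, and both intervals include 0 (-0.05 to 1.24 and -0.88 to 0.44). Near Ankrd1, a YAP/TAZ target, chr19:36106599-36106924 held 38, 33 and 42 reads, with a ratio of 0.82 (0.17 to 1.48) with siRNA. Near Col3a1, chr1:45348336-45348451 held 10, 13 and 45 reads, with a ratio of 2.19 (1.39 to 3.14) with siRNA. The siRNA ratios of T libraries include the authors' line, which moved the median of all regions by 0.46. These regions were chosen for their depth after their values were seen.

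Some T set clusters away from the chromosome starts lay beside well-known genes, and were likewise chosen after their values were seen. Between Eef1g and Ahnak, a giant scaffold protein gene, 4 dense regions sharing a window went from 72 to 74 reads in NC to 113 to 117 in TGF-b, with a median log2 ratio of 0.55. Near Msln, the mesothelin gene, 3 dense regions held 170 to 175 reads in NC and 78 to 90 in TGF-b (median -1.08). Between Erfl and Rabac1, 3 dense regions went from 13 to 14 reads in TGF-b to 70 with siRNA (median 2.82).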

How the data were processed

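Per the labels' processing notes the tools were BWA 0.7.12 and mm10, whereas the study's methods name Bowtie2, GRCm39 and a peak caller given as Masc2. Spike-in DNA is mentioned there and played no part here. Coordinates fit GRCm39 (the last region of chromosome 1 ends at 195054278) and are given as in the tables. The authors deposited 4 tables of merged peaks with a normalized read density, a signal proportional to reads plus 1 per kb and rescaled along a straight line in mean log2 density. Deposited columns of the authors' own fold changes and p-values were not used.

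The log2 ratio of each region was computed from its 2 densities, within its own table. Reversing that rescaling returned read numbers that were whole to a tolerance of 0.1 for 99.97% to 99.99% of regions, and the step was tested on simulated data. These reads gave the depth; total library depth was not used here. Median intervals are rank intervals, shares have Wilson intervals, and a region's interval comes from the Wilson interval of its reads in the later library. The first 2 treat regions as independent and the last covers counting error only. Regions were matched between the tables of a set by peak name.

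Members and lists were chosen with earlier results of these data known. Named regions were, per table, the 3 densest, the 3 largest rises and falls at 30 or more reads (ranked with reads of 3 or fewer set to 3), the 3 clusters with most dense members, and per set the 3 with most reads among those called in all 3 libraries, leaving out chromosome 18. Gene positions came from the tables; RefSeq (GRCm38.p6) gave only the names of genes between neighbours. No sequence of the tables' build was used here. Alternatives were the threshold, low reads, depth and density filters, the scaling, peak class, chromosomes, and the definitions of dense, cluster and overlap. Python 3.11.15 was used with numpy 2.4.6, pandas 2.3.3 and scipy 1.17.1.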

Additional observations from a re-analysis of the deposited data

Results flagged for a closer look

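T and S libraries lay on opposite sides of 0 for siRNA with TGF-b over TGF-b. The labels name a different siRNA in each set. The median log2 ratio of TGF-b with siRNA over TGF-b at intergenic regions without an assigned gene was 1.18 for T libraries and -0.35 for S libraries. This difference was not tested, since each value compares 1 library with 1 library. Regions with a gene gave medians of 0.86 and -0.09.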

How the results depend on the processing

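No paired analysis was possible because each set has 1 library per treatment. Values below are in the order T set and S set for TGF-b over NC, then T set and S set for siRNA over TGF-b, unless named. The median log2 ratio changed sign in the S set for TGF-b over NC without the authors' line (0.32); in the other tables it was -0.93, 0.74 and -0.46. It was -0.77, -0.31, 1.19 and -0.31 above the median density; -0.40 and 0.76 in the T set when 3 reads were taken as the least; -0.77, -0.22 and 0.95 in the first 3 tables at 10 or more reads; 1.14 on autosomes in the T set with siRNA; -0.15, -0.063, 0.21 and -0.14 centred on all regions; -0.20, -0.22, 0.19 and -0.13 at regions called in both libraries; and -0.81, -0.12 and 0.65 in the first 3 tables at 30 or more reads, an alternative chosen after seeing the data. Removing the line from the class, cluster and locus medians was also chosen after seeing the data. Keeping regions at least 2 kb apart, also chosen after seeing the data, left every median within its interval and all counts within 1.5 times.

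Counts of regions at least 2-fold higher were 6537 and 5595 in the S set at 1.5-fold; 7773, 1141, 24445 and 837 at 4-fold; 3125, 1062, 17758 and 951 above the median density; 5923 and 20540 in the T set at 10 or more reads; 217, 14, 332 and 10 when called in both libraries; and 411, 270, 1849 and 139 at 30 or more reads. In the S set for TGF-b over NC they were 8001 without the line and 2663 with 3 reads as the least, and in the T set with siRNA 24527 when centred. Counts at least 2-fold lower were 16369, 2129, 7339 and 2672 at 4-fold; 12617, 2992, 2844 and 2646 above the median density; 20000 and 4711 in the T set with 3 reads as the least; 19803 and 5149 in the T set at 10 or more reads; 20522 and 19918 in the T set when centred; 408, 57, 152 and 37 when called in both; and 3196, 393, 396 and 620 at 30 or more reads. The S set for TGF-b over NC gave 3989 without the line. Filters lower counts because they keep fewer regions; the cause of the other changes was not tested.

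Clusters numbered 150, 59, 134 and 30 with the top 5% as dense (601, 301 and 560 regions in the first 3 tables) and 6, 6, 4 and 7 with the top 0.1% (28, 31, 17 and 32 regions). With at least 2 regions they numbered 58, 42, 53 and 29 (158 and 165 regions in the T set), and with at least 5 regions 5, 12, 8 and 10 (35 and 58 in the T set). Gaps of 10 kb and 200 kb kept all counts within 1.5 times. The share without a gene was 26%, 36.4%, 25.6% and 21.4% among regions called in both libraries and 16.3%, 50.8%, 14.9% and 37.1% among dense regions. With 50% overlap, 2.49% of T set and 6.64% of S set regions overlapped the other set for TGF-b over NC, and 2.60% and 8.11% with siRNA. The filter on the deposited p-value was not run because that column was not used, and the motif search was not run because no genome of the build was used here. At medians of 10 to 17 reads, a single region's 2-fold difference is often within counting error.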
